A study of Mus musculus with 2 samples.

Results

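Of 6040 mouse protein-coding genes with a CpG-rich promoter, 1503 had no H3K27ac peak within 2.5 kb of any of their annotated starts in unstimulated macrophages. They were chosen in 2 steps. A promoter was called CpG-rich when the CpG observed/expected ratio, the count of CpG dinucleotides over the count that the C and G content alone would give, was 0.75 or more in the 1 kb centred on the 5′ end of the gene. From these genes, those with a peak in any of 4 peak lists within 2.5 kb of a start were left out. The annotation held 21938 protein-coding genes in all, and 4537 of the CpG-rich ones had a peak. The 1503 are called peak-free CpG-rich genes here, and the peaks of all 4 lists chose them. The absence of a peak is therefore a description, with no test. A promoter without a peak lay below the threshold of the lists and need not lack acetylation.

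The cells were macrophages grown from bone marrow of C57BL/6J mice and left without stimulation, in 2 biological replicates of 1 group. The replicates came from separate biosamples under 1 donor entry, so their spread may leave out differences between animals. In the labels, sex, age and stage were unknown or not collected. H3K27ac, acetylation of lysine 27 of histone H3, was measured by chromatin immunoprecipitation and sequencing. Replicate 1 had 29543 peaks and replicate 2 had 29345, and the authors' lists made from both libraries together had 32877 (replicated peaks) and 32909 (pooled pseudoreplicated peaks). Of macrophage markers, 18 of 18, among them Spi1, Csf1r, Adgre1 and Itgam, had a peak within 2.5 kb of a start in both replicates. Of all 21938 protein-coding genes, 12694 had no such peak in replicate 1 and 12455 had none in replicate 2. The markers were listed with earlier results of these data known, so this count is a description. No read depth is given in the labels or file headers.

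CpG islands are stretches that have kept their CpG dinucleotides, which elsewhere in the genome are mostly methylated and lost over time by mutation. Islands sit at the promoters of housekeeping genes, which nearly every cell uses, and at those of many developmental regulators, which few cells use. At active promoters H3K27ac flanks the start, while in cells that do not use a developmental gene its island is often covered by Polycomb proteins, whose mark, trimethylation, takes the same lysine.

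The 300 bases from 250 before to 50 after the 5′ end show what such promoters look like. Shown are the homeobox gene Hoxa13, the pluripotency and neural factor Sox2, the glutamate receptor gene Grin1, the meiotic gene Boll and the signalling adaptor gene Traf6, none of which had a peak, beside 1 gene with a peak in every list, Mrpl45 (a mitochondrial ribosome protein). Mrpl45 was taken because it held the most ETS and NRF1 words among the CpG-rich ribosome, proteasome and respiratory chain genes with a peak in every list. Sequences are on GRCm38 (mm10) and read 5′ to 3′ on the strand of the gene. Capitals mark, on either strand, GGGCGGG (SP and KLF factors), CCGGAAG (ETS factors), GCGCA and GCGC with 1 base of any kind between them (NRF1), and AAGATGGC (YY1). Words of 1 kind may overlap.
Hoxa13, chr6:52260831-52261130, minus strand: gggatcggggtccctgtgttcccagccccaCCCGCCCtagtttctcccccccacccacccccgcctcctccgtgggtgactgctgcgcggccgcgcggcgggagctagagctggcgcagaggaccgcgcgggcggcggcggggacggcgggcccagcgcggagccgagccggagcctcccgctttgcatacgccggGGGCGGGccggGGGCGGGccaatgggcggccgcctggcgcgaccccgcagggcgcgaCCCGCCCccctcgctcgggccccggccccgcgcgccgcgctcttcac
Sox2, chr3:34650155-34650454, plus strand: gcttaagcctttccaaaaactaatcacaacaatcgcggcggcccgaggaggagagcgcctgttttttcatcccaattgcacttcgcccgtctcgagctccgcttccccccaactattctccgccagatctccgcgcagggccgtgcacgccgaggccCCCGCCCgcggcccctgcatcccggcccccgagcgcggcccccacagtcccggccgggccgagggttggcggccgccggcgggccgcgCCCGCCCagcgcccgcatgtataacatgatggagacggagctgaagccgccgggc
Grin1, chr2:25319138-25319437, minus strand: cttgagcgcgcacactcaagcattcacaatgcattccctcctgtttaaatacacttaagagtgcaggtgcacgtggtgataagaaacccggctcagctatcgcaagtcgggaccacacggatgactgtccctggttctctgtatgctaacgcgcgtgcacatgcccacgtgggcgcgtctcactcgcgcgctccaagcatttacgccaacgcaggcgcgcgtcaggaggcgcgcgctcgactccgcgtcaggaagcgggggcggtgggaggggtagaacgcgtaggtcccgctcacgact
Boll, chr1:55363420-55363719, minus strand: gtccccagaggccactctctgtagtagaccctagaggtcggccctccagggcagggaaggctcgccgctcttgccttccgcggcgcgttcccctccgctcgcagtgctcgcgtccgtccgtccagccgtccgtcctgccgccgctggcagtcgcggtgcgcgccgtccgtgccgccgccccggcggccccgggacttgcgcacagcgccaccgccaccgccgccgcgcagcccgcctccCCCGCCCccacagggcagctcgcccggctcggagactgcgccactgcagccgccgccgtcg
Traf6, chr2:101678179-101678478, plus strand: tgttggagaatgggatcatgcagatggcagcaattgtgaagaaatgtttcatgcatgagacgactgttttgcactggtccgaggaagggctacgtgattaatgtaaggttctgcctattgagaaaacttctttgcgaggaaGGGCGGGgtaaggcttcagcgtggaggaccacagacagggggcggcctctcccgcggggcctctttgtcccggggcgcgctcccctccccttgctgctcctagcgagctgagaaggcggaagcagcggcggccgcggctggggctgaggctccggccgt
Mrpl45, chr11:97315466-97315765, plus strand: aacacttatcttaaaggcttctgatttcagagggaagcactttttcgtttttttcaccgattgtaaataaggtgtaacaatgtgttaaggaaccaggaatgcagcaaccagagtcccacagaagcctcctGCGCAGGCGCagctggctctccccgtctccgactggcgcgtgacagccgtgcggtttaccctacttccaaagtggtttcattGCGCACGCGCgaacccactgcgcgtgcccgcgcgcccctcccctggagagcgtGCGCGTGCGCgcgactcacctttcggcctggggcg

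Of the 5 peak-free promoters, Traf6 alone held fewer CpG than the promoter with a peak. Within the 300 bases Hoxa13 and Boll each held 45 CpG, Sox2 held 37, Grin1 33 and Traf6 20, against 27 for Mrpl45. The SP and KLF word stood 4 times at Hoxa13, 2 times at Sox2 and 1 time each at Boll and Traf6. In these windows the NRF1 word was found at Mrpl45 alone, 3 times, and neither the ETS nor the YY1 word was found. Mrpl45 was chosen for such words, so this contrast follows from the choice. In the 1 kb window 23.3% of CpG-rich genes with a peak held the NRF1 word. The nearest peak of Hoxa13 was 68534 bp from the 5′ end in replicate 1 and 68483 bp in replicate 2. That of Sox2 was 569224 and 568617 bp away, in the same order. Grin1 had its nearest peak at 12818 and 12821 bp, Boll at 126504 and 125093 bp, and Traf6 at 20018 and 19763 bp. In each of these 5 genes the distance in replicate 2 was close to that in replicate 1. The nearest peaks of Mrpl45 lay 40 and 37 bp from its 5′ end.

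The peak-free CpG-rich genes made up 24.9% of CpG-rich genes (95% Wilson interval 23.8 to 26.0), against 64.6% without a peak among genes below the ratio and 53.6% among all protein-coding genes. Intervals here cover counting error alone, and genes that share a promoter or a cluster are not independent. By list, 1868 CpG-rich genes had no peak in replicate 1 and 1756 had none in replicate 2, a mean of 1812 ± 79.2 (SD, n = 2). The replicated list left 1575 and the pooled list 1558. All 4 lists had a peak at 4069 CpG-rich genes (67.4%), and 468 had a peak in 1 to 3 lists. Peaks of replicate 1 without one of replicate 2 accounted for 101 genes, and the opposite for 213. A further 152 genes had no peak in either replicate but had one in a list made from both libraries.

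The limit of 2.5 kb met few genes. A peak 2.5 to 5 kb from a start was found for 98 peak-free genes (6.52%), and 69 CpG-rich genes had their nearest peak between 1 and 2.5 kb, while 4468 had one within 1 kb. Just outside the limit stood the imprinted receptor gene Igf2r, at 2505 bp from its nearest start, the male germ cell kinase gene Mak at 2533 bp, and Mrpl38, of the mitochondrial ribosome, at 2548 bp. Just inside stood Tmem238 at 2488 bp and 4931406P16Rik at 2471 bp. The peak that came nearest to Rictor, which encodes a subunit of the mTORC2 kinase complex, was in the replicated list alone, at 2678 bp; in the replicates the nearest peak was 81163 and 81142 bp away. On the CpG side, Tex11 (0.750226) and Chd6 (0.750751) were just above the ratio, and Nell2 (0.749981) and Fam84a (0.749906) had no peak and were just below it.

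Developmental transcription factors were mostly without a peak. Of the CpG-rich genes in 5 classes of such factors, defined by patterns of gene symbols, 117 of 140 were peak-free, or 83.6% (76.6 to 88.8), beside 24.9% of all CpG-rich genes. These classes made up 7.78% of the peak-free genes, 0.507% of the CpG-rich genes with a peak and 1.90% of all protein-coding genes. The count was 10 of 11 for the HOX clusters, 43 of 48 for other homeobox genes, 30 of 39 for Pax, Sox, Fox, T-box and Gata factors, 14 of 16 for basic helix-loop-helix factors, and 20 of 26 for developmental zinc finger and other factors. Most factors of these classes were below the CpG ratio and likewise had no peak: with any CpG ratio, 374 of 417 genes were without one.

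CpG-rich HOX genes, which set position along the body axis, showed 1 exception. With any CpG ratio, 36 of 39 HOX genes had no peak. The CpG-rich HOX gene with a peak was Hoxa4, and that peak was also the nearest one of its neighbour Hoxa5, at 12241 bp in replicate 1 and 12190 bp in replicate 2, with a fold of 5.33 and 5.70. The fold is the authors' own enrichment value of a peak. Hoxa13, at the far end of the same cluster, had the same nearest peak. Hoxd13 differed between the replicates: its nearest peak was 756303 bp away in replicate 1 but 89676 bp in replicate 2, at Lnpk, with a fold of 4.02. That peak was found in replicate 2 and in the pooled list. Across the HOX genes in the set the median distance was 166608 bp in replicate 1 and 79079.5 bp in replicate 2.

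Homeobox genes with the highest CpG ratio were Barhl2 (1.07), a factor of retinal and other neurons, Pou4f1 (1.01), of sensory neurons, and En2 (1.00), of the midbrain and hindbrain. En2 had its nearest peak at 91355 and 92152 bp, at the start of Insig1. Barhl2 had its nearest peak at 156228 and 156809 bp. Other factors with a high CpG ratio were Foxo1 (1.06), an effector of insulin signalling, the somite factor Tcf15 (1.06), Ebf3 (1.05), a relative of the B cell factor Ebf1, and Id4 (1.02), which blocks helix-loop-helix factors. The peak nearest to Foxo1 was 68921 and 68934 bp away, and that of Tcf15 36860 and 37149 bp, at the start of Srxn1. The replicates agreed within 1 kb for En2, Barhl2, Foxo1 and Tcf15.

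Some factors known from blood cells were among the peak-free genes, chosen for mention after their values were seen. Gata2, which maintains blood stem and mast cells, had its nearest peak at 83844 and 83953 bp in replicates 1 and 2, and Tbx21, the T-bet factor of T helper 1 cells, at 11682 and 11650 bp. Sox4, a factor of early lymphocytes, had its nearest peak at 109756 and 109822 bp. Among the 23 CpG-rich factors with a peak were Hhex and Hlx, homeobox genes used in blood cells, Tal1, a regulator of blood stem cells, Pou2f1 and Pou2f2, and Foxp1, Foxo3 and Foxn3. All 23 had a peak in each of the 4 lists.

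**Figure D1:**
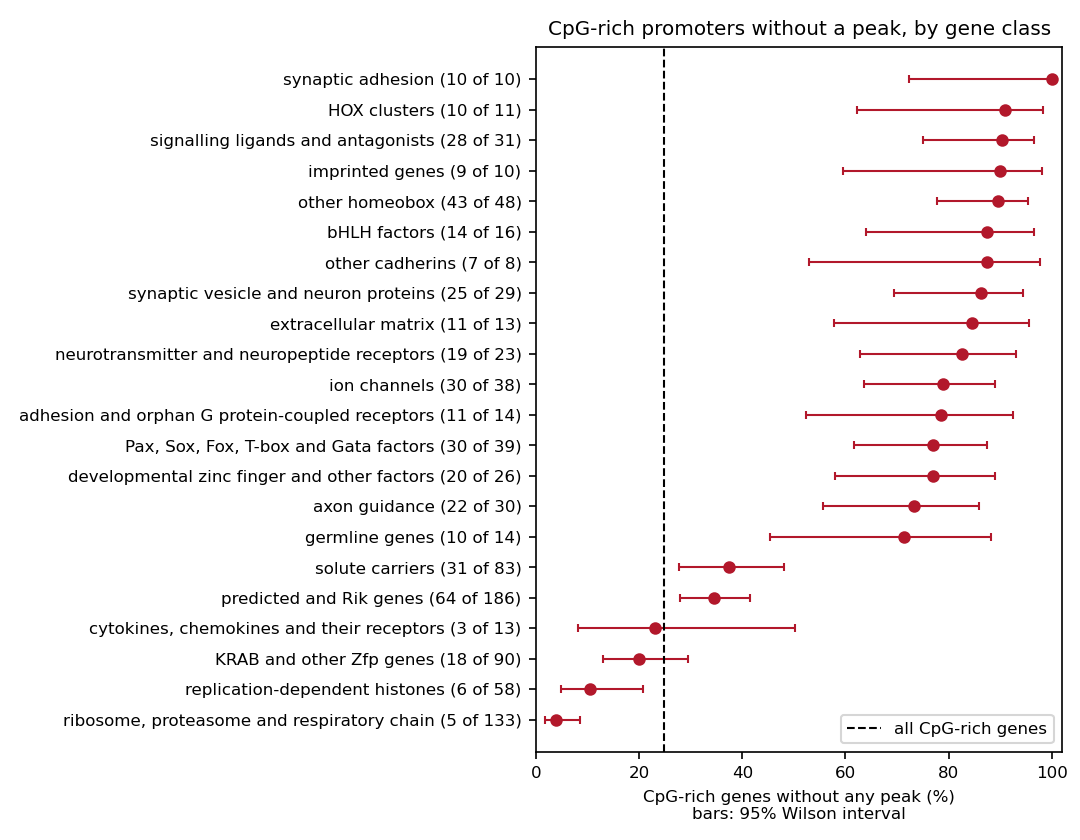
Share of the CpG-rich genes of each class that had no H3K27ac peak within 2.5 kb of a start in any list (x axis, percent), for the classes with 8 or more CpG-rich genes; points are shares, bars are 95% Wilson intervals, and the dashed line is the 24.9% of all CpG-rich genes. The classes from germline genes upward lie at 71.4% or more, and the ribosome, proteasome and respiratory chain class lies at 3.76%.

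Signalling ligands and guidance molecules, which cells use to direct their neighbours, followed the same pattern. Of the CpG-rich ligands and antagonists 28 of 31 were peak-free, among them Wnt4, Wnt5b, Wnt9a, Bmp7, Fgf8, Gdnf, Ihh, Nog and Jag2, while Bmp2, Jag1 and Gdf9 had a peak. Fgf8, a growth factor of limb and brain patterning, had its nearest peak at 39225 and 39456 bp in replicates 1 and 2. The Wnt antagonist gene Sfrp1, at a CpG ratio of 1.04, had its nearest peak at 153889 and 153764 bp. Of CpG-rich axon guidance genes 22 of 30 were peak-free, with 10 ephrins or Eph receptors among them, beside 24.9% of all CpG-rich genes. The plexins Plxna1, Plxnb2, Plxnc1 and Plxnd1 were on the side with a peak, while Plxna4 and Plxnb1 had none. Efnb2, a ligand of Eph receptors, differed widely between the replicates: its nearest peak was 1314664 bp away in replicate 1 but 28252 bp in replicate 2, at a fold of 5.70. Of the receptors of Wnt proteins, a family chosen after values were seen, 6 of 7 CpG-rich Frizzled genes were peak-free and Fzd7 was not.

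Neuronal genes made a second large group. Of the CpG-rich genes, 25 of 29 for synaptic vesicle and neuron proteins and 19 of 23 for receptors of neurotransmitters and neuropeptides were peak-free. So were 30 of 38 for ion channels and 10 of 10 for synaptic adhesion proteins, beside 24.9% of all CpG-rich genes. In the same order, 92 of 116, 125 of 140, 145 of 172 and 56 of 64 genes with any CpG ratio had no peak. Over all protein-coding genes the share was 53.6%. Grik3, a kainate receptor subunit, had its nearest peak at 344137 and 344106 bp, with folds of 22.0 and 21.4. Nptx2, a pentraxin that clusters glutamate receptors, had its nearest peak at 222287 and 222273 bp, at the start of Trrap. Kcnmb4, a subunit of calcium-activated potassium channels, was 106540 and 106418 bp from its nearest peak. Each of these values differed by less than 200 bp between the replicates. Ion channels with a peak included Kcna3, the potassium channel Kv1.3 of lymphocytes and macrophages, and Kcnk6. Of CpG-rich adhesion and orphan G protein-coupled receptors 11 of 14 were peak-free, and of the other CpG-rich cadherins 7 of 8.

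Most CpG-rich germline, imprinted and matrix genes were also peak-free, beside 24.9% of all CpG-rich genes. With any CpG ratio, 68 of 82, 27 of 34 and 99 of 119 of these genes had no peak, beside 53.6% of all genes. Of 14 CpG-rich germline genes 10 had no peak, among them Boll, Tdrd5, Meiob and Tex11, and Zcwpw1, Syce2, Tdrd3 and Hsf2bp had one. Tdrd5, which silences transposons in male germ cells, was 117209 and 117173 bp from its nearest peak. Of 10 CpG-rich imprinted genes, which are expressed from 1 parental allele, 9 had no peak, among them Zdbf2, Peg10, Nnat, Cdkn1c and Dio3. Zdbf2 lay 95516 and 95038 bp from a strong peak at the starts of Eef1b2 and Ndufs1, with folds of 30.6 and 32.0. Igf2r had 2 peaks of the replicated list in its gene body, and its 5′ end was 10623 and 10555 bp from the nearest one. Of CpG-rich extracellular matrix genes 11 of 13 were peak-free, including the divergent pair Col4a1 and Col4a2, collagens of the basement membrane.

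Some classes of general cell functions were at the opposite end. The ribosome, proteasome and respiratory chain class had 5 peak-free genes of 133 (3.76%, 1.62 to 8.50): Mrpl37, Mrpl38, Mrps6, Mrps35 and Ndufa1. Replication-dependent histones had 6 of 58 (10.3%, 4.83 to 20.8). KRAB and other Zfp genes had 18 of 90 (13.04 to 29.4), and cytokines, chemokines and their receptors 3 of 13 (23.1%, 8.18 to 50.3). Both intervals held the 24.9% of all CpG-rich genes. The classes were written with earlier results of these data known, so their intervals are a description and not a test. Solute carriers had 31 of 83 (37.3%, 27.7 to 48.1). Classes overlapped: of these 31, Slc32a1, Slc6a17, Slc6a11, Slc6a4 and Slc18a3 were also counted among synaptic vesicle and neuron proteins. Slc25a31 was also counted among germline genes. The 3 cytokine genes were Cxcl12, a chemokine of stromal cells, Il17d and Il17rd. In all, 423 of the peak-free genes (28.1%) fell in any of the 26 classes, against 11.0% of CpG-rich genes with a peak and 23.02% of all genes. The largest single class among the 423 was predicted and Rik genes, with 64 peak-free of 186 CpG-rich ones (34.4%, 28.0 to 41.5).

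A list of 30 genes of known role, most of them in other tissues, held 8 of the peak-free genes: Grin1, Hoxd13, Traf6, Sox2, Hoxa13, Sox1, Neurog1 and Fgf8. The other 22, among them Pax6, Myod1, Shh and Nanog, also had no peak but were below the CpG ratio. In all, 0 of the 30 had a peak, where 53.6% of all genes had none. The list was written with earlier results of these data known, so this count is a description. Sox1, a neural factor, was 352819 and 352827 bp from its nearest peak, and Neurog1, a proneural factor, 64656 and 67445 bp.

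Genes that most cells use were also found among the peak-free ones. The following were chosen after their values were seen, apart from Traf6. Traf6, which relays signals from Toll-like receptors, had its nearest peak 20018 and 19763 bp downstream, within the gene, with folds of 9.13 and 7.51. Crebbp, which encodes an acetyltransferase of H3K27, had its nearest peak at 135683 and 135609 bp from the 5′ end, and 10015 bp from any start in any list. Dicer1, the nuclease that cuts microRNA precursors, was 230935 bp from a peak in replicate 1 and 83787 bp in replicate 2. Scap, a sterol sensor, had its nearest peak at 27087 and 27188 bp. Cyc1, a subunit of respiratory complex III, had 5 peaks within 25 kb in the replicated list, the nearest at 6408 and 6175 bp. Of DNA replication and repair genes, a family also chosen after values were seen, 7 of 41 CpG-rich ones were peak-free (17.1%, 8.53 to 31.3), an interval that holds the 24.9% of all CpG-rich genes. The 1 kb windows of Crebbp, Rictor and Dicer1 had a GC content of 75.4, 73.0 and 72.6%, and those of Cyc1, Scap and Traf6 one of 62.8, 61.9 and 57.2%, around a median of 65.4% for the whole set. The part of GC content in the absence of a peak was not tested.

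**Figure D2:**
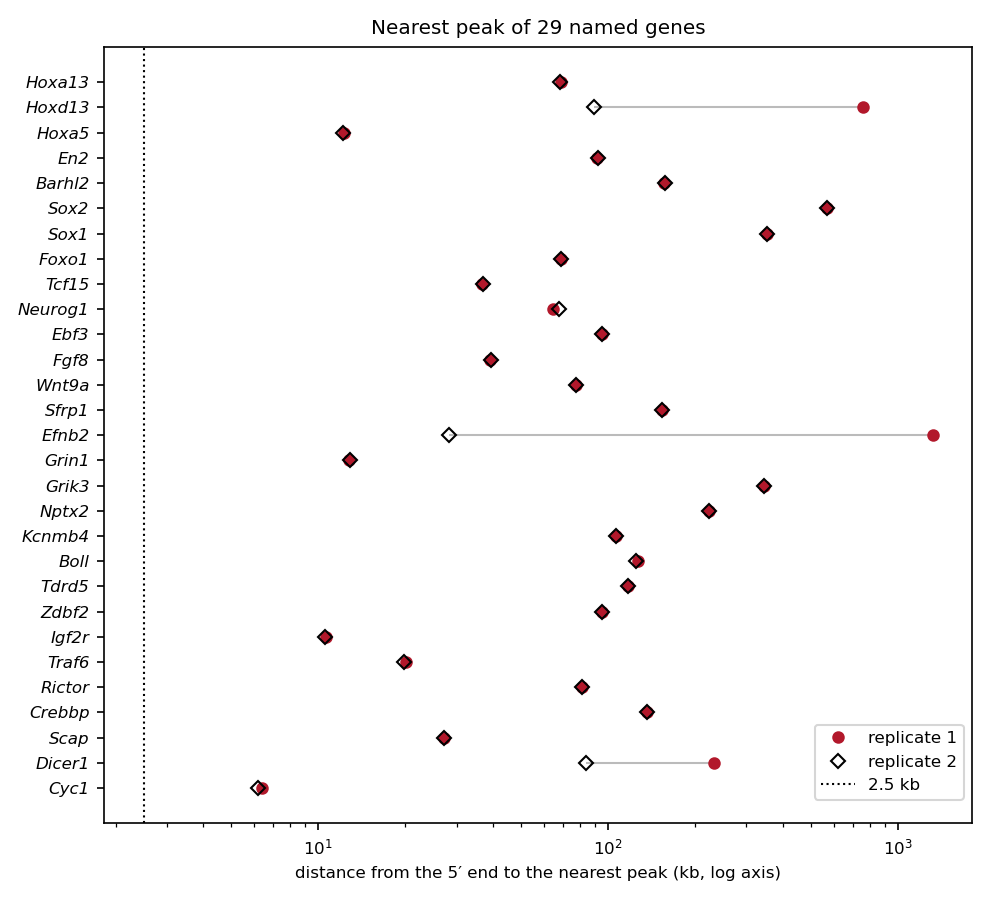
Distance from the 5′ end to the nearest H3K27ac peak of 29 named peak-free genes (x axis, kb, log scale), as filled circles for replicate 1 and open diamonds for replicate 2, with a grey line between them and the 2.5 kb limit dotted. For Hoxd13, Efnb2 and Dicer1 the replicates lie far apart, and for the other genes the symbols nearly coincide.

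Peaks were far from most of these promoters. The median distance from the 5′ end to the nearest peak was 59168 bp in replicate 1 and 57128 bp in replicate 2, a mean of 58148 ± 1442.5 bp (SD, n = 2). In CpG-rich genes with a peak, the nearest peak over 2.5 kb from every start of the gene was at a median of 19977 and 19510 bp. In genes below the CpG ratio and without a peak it was at 92363 and 89887 bp. The groups were chosen with the same peaks, so these medians are a description. In replicate 1 the middle 50% of the peak-free CpG-rich genes lay between 25144 and 148996 bp, against 8442 to 45596 bp for CpG-rich genes with a peak and 29275 to 326121 bp for genes below the ratio without one, so the groups overlap widely. Within 10 kb, 7.25 and 7.58% of them had a peak, and for 35.1 and 33.6% the nearest peak was over 100000 bp away. The factors of the 5 classes had a median distance of 91355 and 92152 bp, against 56929 and 54377 bp for the other peak-free genes. For 1239 of the 1503 genes (82.4%) the distances in the replicates differed by at most 1 kb, and for 104 (6.92%) they differed by more than 2-fold.

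**Figure D3:**
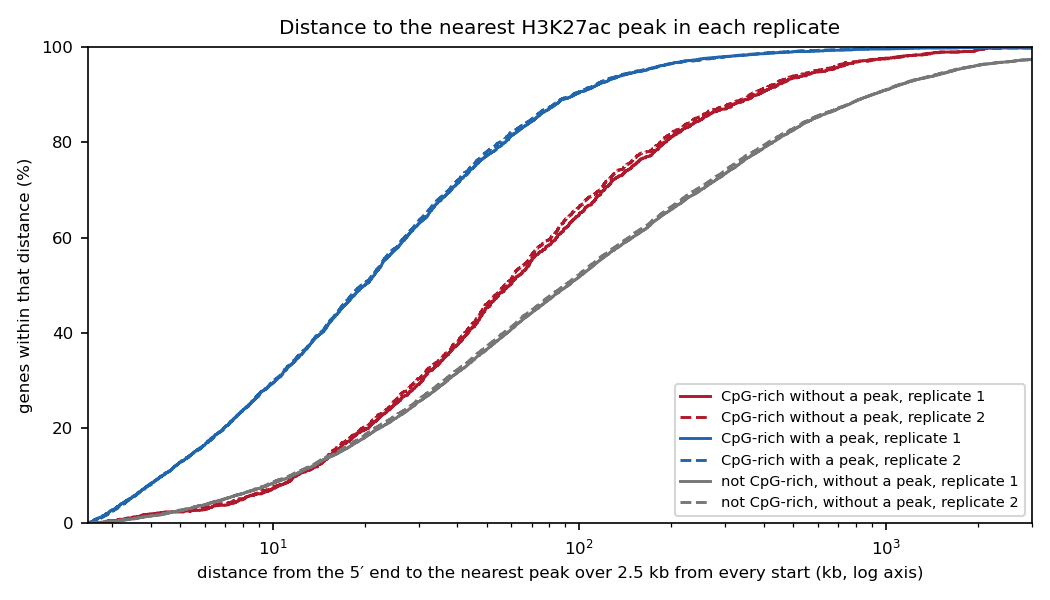
Cumulative share of genes (y axis, percent) by distance from the 5′ end to the nearest peak over 2.5 kb from every start (x axis, kb, log scale), in replicate 1 (solid) and replicate 2 (dashed), for peak-free CpG-rich genes, CpG-rich genes with a peak, and genes that are not CpG-rich and have no peak. The curves of the replicates nearly coincide, and the peak-free CpG-rich genes lie to the right of CpG-rich genes with a peak, with medians of 59168 and 57128 bp against 19977 and 19510 bp.

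The 10 genes farthest from any peak of any list included neuronal adhesion and guidance genes. Lrrtm1, a synaptic adhesion protein, was 3993979 and 3993921 bp from its nearest peak, at the start of Suclg1. Adgrl3, the adhesion receptor latrophilin 3, was 3709139 and 3709169 bp from the nearest peak, and the netrin receptor gene Unc5d 1929616 and 1929737 bp. Sorcs1, Adgra3, Cdh2, Ccser1, Naaladl2, Gm43517 and the X-linked gene Cldn34c1 made up the rest, and Cldn34c1 had the longest distance of all, 6646659 and 6646557 bp in the replicates and 5332410 bp in the lists made from both libraries. At the other end, Efna2 and Slc5a5 each had, in the replicated list, 8 peaks within 25 kb of the 5′ end, and Nr2f6 and Rnf208 each had 7, none within 2.5 kb of a start.

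The nearest peak of each peak-free gene was placed by what lay around it. It lay within 1 kb of a start of another protein-coding gene for 51.2% of the peak-free genes in replicate 1 and 52.1% in replicate 2, in the body of the gene itself for 8.25 and 8.72%, and elsewhere for 40.5 and 39.2%. The same shares were not computed for other genes, so they describe the set and do not set it apart. The nearest peaks of peak-free genes had a median fold of 6.02 and 6.20, against 7.03 and 7.04 for all peaks of the same list. Within 25 kb of the 5′ end, 25.3 ± 0.565% of peak-free genes had a peak, against 94.5 ± 1.11% of CpG-rich genes with a peak and 55.6 ± 0.815% of all genes (SD, n = 2 replicates). Within the gene body the shares were 13.1 ± 0.235, 85.9 ± 1.96 and 43.5 ± 0.970%. For CpG-rich genes with a peak these shares count the promoter peak that chose them.

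Some peak-free genes had another as their neighbour. The nearest protein-coding gene by 5′ end was itself a peak-free CpG-rich gene for 238 of 1503 (15.8%, 14.1 to 17.8), against 5.49% of CpG-rich genes with a peak and 5.49% of all protein-coding genes. Genes that share a promoter are called together by the rule, so part of this contrast follows from it. For the nearest gene whose 5′ end was over 5 kb away, an alternative chosen after seeing the data, the shares were 11.1% (9.62 to 12.8), 7.05% (6.34 to 7.84) and 5.88% in the same order. That gene had no peak, at any CpG ratio, for 49.6% (47.1 to 52.2) of peak-free genes, against 39.9% of CpG-rich genes with a peak and 54.3% of all genes. Both flanking genes had a peak for 22.0% of the peak-free genes, 1 of them for 49.2% and neither for 28.5%, against 40.2, 46.6 and 13.1% for CpG-rich genes with a peak and 26.5, 39.6 and 33.7% for all genes. At least 1 flanking gene with a peak was found for 71.3% of peak-free genes, 86.8% of CpG-rich genes with a peak and 66.1% of all genes.

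Divergent pairs were less common in the set than in CpG-rich genes with a peak. Another protein-coding 5′ end lay within 1 kb on the opposite strand for 99 peak-free genes (6.59%, 5.44 to 7.95), against 26.6% of CpG-rich genes with a peak and 10.9% of all genes. A peak at the start of such a partner mostly leaves the gene out of the set, so part of this contrast follows from the rule. In 69 of the 99 the partner was peak-free and CpG-rich too, and the window of 2.5 kb covers both starts of such a pair, so this sharing follows from the rule. Examples are Col4a1 and Col4a2, 21 bp apart, Pxmp2 and Pole, 120 bp apart, and Bag4 and Lsm1, 1 bp apart. A long noncoding RNA started within 1 kb on the opposite strand for 11.4% of peak-free genes, 10.7% of CpG-rich genes with a peak and 6.20% of all genes.

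Along the chromosomes 395 of the 1503 genes (26.3%) stood in runs of 2 or more adjacent members, 182 runs in all: 157 pairs, 21 runs of 3, 3 runs of 4 and 1 run of 6. Runs were not counted for another group of genes, so these counts alone do not show clustering. In 49 of the 213 adjacent pairs within these runs (23.005%) the 5′ ends were at most 5 kb apart, where the rule tends to call both genes together. Runs of 3 included the Iroquois homeobox genes Irx1, Irx2 and Irx4, the genes Ccno, Mcidas and Cdc20b of multiciliated cells, and Foxf2 and Foxc1 with A530084C06Rik. The run of 4 on chromosome 7 was Apba2, Nsmce3, Fam189a1 and Tjp1. Apba2, a neuronal adaptor protein, was 100249 and 100195 bp from its nearest peak, and Tjp1, a tight junction protein, 532249 and 532156 bp.

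The other 3 runs of 4 or more lay in copied sequence. The run of 6 was a cluster of histone genes on chromosome 13, from Hist1h2bq to Hist1h2br, and the others were Fam177a to Srp54c on chromosome 12 and Phf10 to Gm3435 on chromosome 17. Most of their genes had under 50% of the 31-letter words of the 1 kb window found once in the genome. A read that lies wholly in identical copies cannot be placed in one of them. Of all peak-free genes 33 (2.20%) were under 50%, 16 of them with no unique word, against 33 (0.727%) of CpG-rich genes with a peak, so 33 of the 66 CpG-rich genes under 50% had a peak. The part of copied sequence in the absence of a peak was not tested. The 6 histone genes of the set were all under 50%. Whether the authors' mapping kept reads from such copies is not stated in the labels.

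Stretches without a peak in any list held mostly 1 of these promoters. Of 1248 such stretches with at least 1 peak-free CpG-rich gene, with a median length of 217266 bp, 1035 held exactly 1 and 34 held 3 or more (110 genes). The stretch chr2:74578635-75584754 held Evx2, Hoxd13, Hoxd9, Hoxd1 and Mtx2, on either side of and within the HOXD cluster. The stretch chr7:64404125-66059936 held the run from Apba2 to Tjp1 and also Pcsk6. The longest with 3 such genes, chr5:77311094-85778324, spanned 8467231 bp and held Igfbp7, Adgrl3 and Epha5.

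By chromosome, the share of CpG-rich genes without a peak was between 18.02% (chromosome 17) and 30.4% (chromosome 12) on the autosomes. On the X chromosome it was 42 of 103 (40.8%, 31.8 to 50.4), against 24.6% (23.5 to 25.7) on the autosomes together. Without regard to CpG ratio, 71.6% of X-linked genes and 52.4% of autosomal genes had no peak. Of the 42 X-linked genes 6 were under 50% unique. On the Y chromosome 3 of 5 CpG-rich genes had no peak. The list of each replicate held 2 peaks on the Y chromosome, and in both the peak nearest to the Y-linked gene Kdm5d was at the start of Uty. The part of sex in the share of X-linked genes without a peak was not tested.

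The peak-free genes were richer in GC and longer than CpG-rich genes with a peak. The median GC content of the 1 kb window was 65.4%, against 62.5% for CpG-rich genes with a peak and 54.8% for all genes. The median CpG ratio, which the rule bounds from below, was 0.841, against 0.854 for CpG-rich genes with a peak. The CpG island at the 5′ end had a median length of 1210 bp, against 1160 bp, and of 1740 bp in the peak-free transcription factors of the 5 classes. Genes had a median length of 42102 bp and 4 starts, against 27795 bp and 5 starts for CpG-rich genes with a peak and 17425 bp and 3 starts for all genes, while the 117 factors had a median length of 5437 bp and 1 start. The rule uses every start, and a gene with more starts has more places where a peak leaves it out of the set.

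The share without a peak changed with these properties. Among CpG-rich genes it was 12.6% (10.0 to 15.8) at a GC content of 50 to 55% and 39.2% (35.8 to 42.8) at 70 to 75%, with 17.9% below 50% GC and 34.7% above 75%. It was 23.2% for islands under 1000 bp and 37.5% (32.8 to 42.6) for islands of 2000 to 3000 bp. It was 24.8% for genes under 10000 bp, 17.2% at 10000 to 30000 bp, 23.7% at 30000 to 100000 bp, 35.5% at 100000 to 300000 bp and 65.1% (58.2 to 71.5) for the 195 genes over 300000 bp. Over all genes, and with no bound on the CpG ratio, it was 89.7% at ratios under 0.15, 22.03% at 0.85 to 0.95 and 23.7% at 0.95 or more. The 5 transcription factor classes stood apart at matched GC content: 93.1% of 29 genes (78.0 to 98.1) had no peak at 60 to 65% GC, against 21.6% of the other CpG-rich genes, and 81.3% of 32 (64.7 to 91.1) at 70 to 75% GC, against 37.3%.

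**Figure D4:**
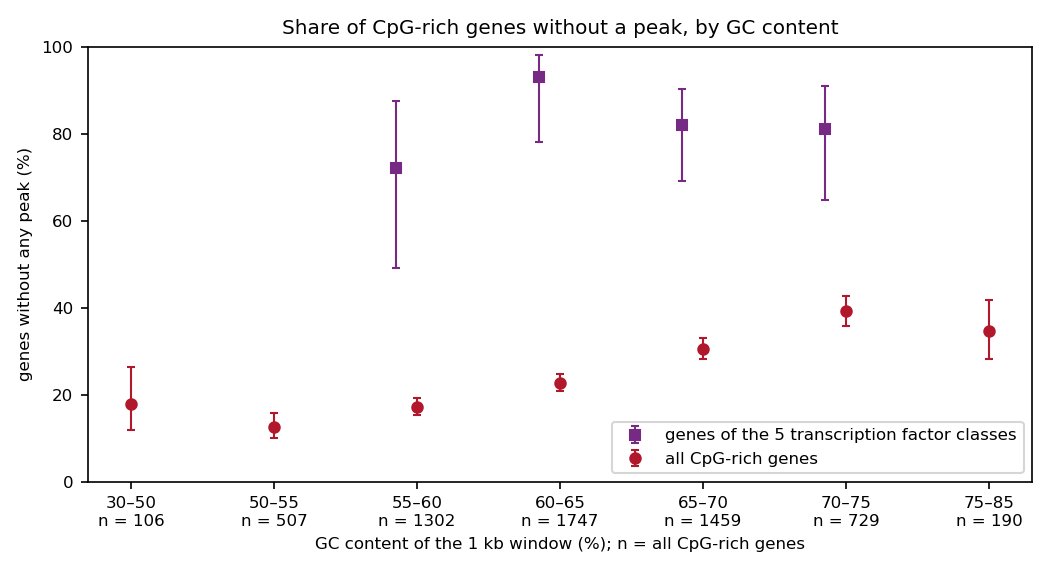
Share of CpG-rich genes without any peak (y axis, percent) by GC content of the 1 kb window (x axis, percent), for genes of the 5 transcription factor classes (squares, in the 4 bins computed for them) and for all CpG-rich genes (circles), with 95% Wilson intervals. The share of all CpG-rich genes is 12.6% at 50 to 55% GC and 39.2% at 70 to 75% GC, and the factors lie between 72.2 and 93.1%.

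Words of factors that bind the promoters of widely used genes were scarcer in the set than in CpG-rich genes with a peak. The ETS word CCGGAAG was found on either strand of the 1 kb window in 16.8% of peak-free genes (15.03 to 18.8), against 37.7% of CpG-rich genes with a peak and 19.19% of all genes. The NRF1 word, GCGCA and GCGC with 1 base between them, was found in 12.2% (10.7 to 14.0), against 23.3 and 8.83%. The YY1 word AAGATGGC was found in 6.52%, against 13.3 and 7.53%. Either the ETS or the NRF1 word stood in 26.7% (24.5 to 29.0) of peak-free genes and in 52.1% (50.7 to 53.6) of CpG-rich genes with a peak. Over all protein-coding genes the share was 25.1%, within the interval of the peak-free genes. Against CpG-rich genes with a peak, peak-free genes had a lower share in each of 5 bins of GC content. The shares were 26.9 against 54.0% at 60 to 65% GC and 25.5 against 36.8% at 70 to 75% GC. A word match is a description and not a bound site.

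Other words differed less or ran the other way. The SP and KLF word GGGCGGG was found in 82.2% of peak-free genes, against 78.2% of CpG-rich genes with a peak and 46.7% of all genes. Within the 5 bins of GC content from 50 to 75% the peak-free share was the higher only at 60 to 65% GC, with 81.7 against 79.5%, and at 65 to 70% GC the shares were 87.0 against 89.5%. The E2F word TTCCCGC was found in 27.1% of peak-free genes, against 28.6% of CpG-rich genes with a peak and 15.2% of all genes. The E-box CACGTG was found in 21.5% of peak-free genes, against 23.3% of CpG-rich genes with a peak and 17.03% of all genes. For both words the intervals of the CpG-rich groups overlapped. The NF-Y word CCAATCA stood in 11.0% of peak-free genes, against 16.6% of CpG-rich genes with a peak and 14.6% of all genes. In the same groups and order, the CREB and ATF word TGACGTCA stood in 3.79, 6.30 and 3.32%, and the BANP word TCTCGCG in 13.6, 17.9 and 7.24%. Parts of the site of REST, a repressor of neuronal genes, were searched for too. TCAGCACC was found in 6.85% of peak-free genes, against 5.36% of CpG-rich genes with a peak, with overlapping intervals, and 5.63% of all genes. GGACAGCG was found in 10.8% of peak-free genes (9.31 to 12.4), against 8.40% of CpG-rich genes with a peak (7.63 to 9.24) and 5.17% of all genes. The word GAGGAAGT of PU.1, the macrophage factor encoded by Spi1, was found in 3.26% of peak-free genes, against 5.69% of CpG-rich genes with a peak and 6.85% of all genes. The word AGATAAG of GATA factors was found in 3.53, 4.69 and 8.58% in that order. TATAAA or TATATA stood shortly before the start, on the strand of the gene, in 1.26, 0.838 and 3.39%. The PU.1 and ETS words share the letters GGAAG.

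The gene classes of the set differed in these words. Of the 10 peak-free germline genes 8 held an ETS or NRF1 word, as did 29 of 64 predicted and Rik genes, beside 26.7% of all peak-free genes. Of the 117 transcription factors 20 did (17.1%, 11.3 to 24.9), of the 30 ion channel genes 3, and of the 11 extracellular matrix genes 0. The classes of factors differed, with 7 of 14 basic helix-loop-helix factors and 4 of 20 developmental zinc finger and other factors. The count was 5 of 43 for other homeobox genes, 3 of 30 for Pax, Sox, Fox, T-box and Gata factors and 1 of 10 for HOX genes. The NF-Y word was found in 23.9% (17.1 to 32.4) of the transcription factors but in 9.96% of the other peak-free genes.

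**Figure D5:**
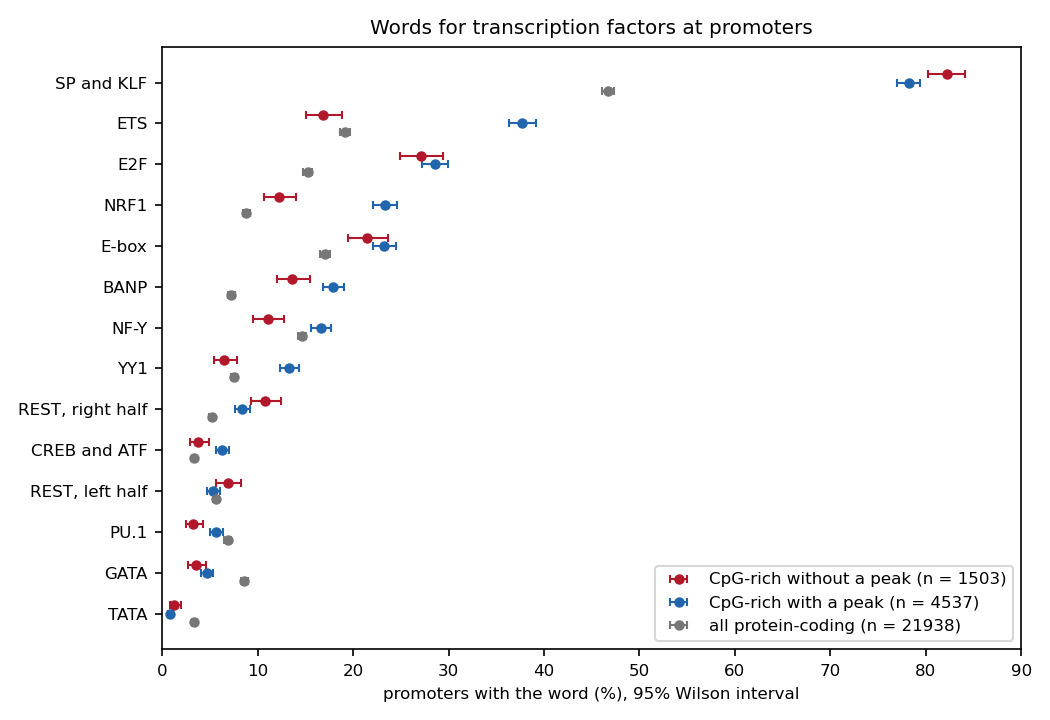
Share of promoters with each word on either strand of the 1 kb window, or for TATA in the window before the start (x axis, percent), in peak-free CpG-rich genes, CpG-rich genes with a peak and all protein-coding genes, with 95% Wilson intervals. The ETS, NRF1 and YY1 words are at 16.8, 12.2 and 6.52% in peak-free genes, against 37.7, 23.3 and 13.3% in CpG-rich genes with a peak.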

How the data were processed

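H3K27ac ChIP-seq was deposited as 4 peak lists on mm10: 1 for each of the 2 replicates, called per sample, and 2 made from both libraries together. Per the labels, the replicates are separate biosamples of 1 group. The deposited fold of a peak is a linear ratio, and the deposited q-value is on a −log10 scale. Aligner, peak caller and read depth are not given in the sources used here.

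Starts of all transcripts of protein-coding genes in GENCODE M21 (93513 starts) were compared with peaks of any list by their nearest base. Promoter sequence was read from GRCm38 patch 6. CpG islands were scanned in 200 bp windows with a GC content of at least 50% and a CpG ratio of at least 0.6. The TATA word was searched from 40 to 16 bp before the 5′ end. Scripts used Python 3.11.15, numpy 2.4.6, pandas 2.3.3, scipy 1.17.1, numba 0.67.0 and matplotlib 3.10.9, and were checked on simulated data. No test across genes was run. Of each class, the genes with the 3 highest CpG ratios and the one with the nearest peak could be named, besides those at the limits, those farthest from a peak, runs, and a list of 30 genes. Members, classes and lists were chosen with earlier results of these data known, and 5 families after values were seen. By that rule, no germline gene of the list of 30 was in the set, so Boll, the germline gene with the highest CpG ratio, is shown, and Sox2, Traf6 and Mrpl45 were added. A promoter with a peak that the rule named is not reported here. Alternatives covered the lists, the q threshold, the distance, the starts, the CpG ratio, the overlap and unique sequence.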

Additional observations from a re-analysis of the deposited data

How the results depend on the processing

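The 5 main results are the count of 1503 genes, the median distance of 58148 bp, the 7.78% share of transcription factors, the 15.8% share next to another member and the 26.7% share with an ETS or NRF1 word. With the list of replicate 1 or of replicate 2 alone, they were 1756 to 1868 genes, 51942 to 52271 bp, 6.26 to 6.66%, 18.4 to 19.11% and 28.9 to 30.9%; with 1 list in place of 4, fewer genes are left out by construction. The replicated list alone gave 51525 bp. A distance of 1 kb gave 54728.8 bp, one of 5 kb gave 62992 bp, and the 5′ end alone gave 53752.8 bp. With the nearest gene over 5 kb away, a setting chosen after seeing the data, 11.1% were next to another member. A CpG ratio of 0.6 gave 2964 genes, 24.2% next to another member and 23.7% with a word. A ratio of 0.9 gave 436 genes, 62239.8 bp, 10.1 and 33.03%. For the last settings the count follows from the bound on the ratio, and the cause of the other shifts was not tested. A −log10 q of at least 5, the midpoint of the peak and unique sequence alone left the 5 results within the spread of the replicates or the interval of the main value. No paired analysis was possible because the replicates form 1 group. The unknown depth limits what the absence of a peak shows.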
